A study of Homo sapiens with 6 samples.

Results

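The cytosolic heat shock chaperones were followed in Kasumi-1 cells as 10 genes chosen by name, HSP90AA1, HSP90AB1, HSPA8, HSPA1A, HSPA1B, HSPH1, DNAJB1, HSPB1, HSPE1 and HSF1. Each was found by its Ensembl identifier among the 29810 genes of the table, and all 10 were among the 12960 genes tested. The set is named for the cytosol, but HSPE1 encodes the mitochondrial co-chaperonin and HSF1 encodes a transcription factor, so 8 of the 10 genes are cytosolic chaperones in the strict sense. Kasumi-1 is a single human acute myeloid leukemia line that carries the t(8;21) fusion of RUNX1 and RUNX1T1. The mRNA of 3 control samples and of 3 samples given 0.25 μM I3, an inhibitor of histone deacetylases with a hydroxamate group, was sequenced. The labels and the sequencing methods of the study give 48 h of treatment, and the methods name DMSO as the vehicle of the controls. A figure legend of the study gives a longer treatment and the name of the table spells the compound differently, and the values cannot settle either point. The methods speak of experiments done 3 times, but neither they nor the labels say whether the sequenced samples of a group were separate cultures, so the p-values measure only the spread between these samples, which may be technical.

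Heat shock proteins hold other proteins in a foldable state. HSP70 binds short stretches of unfolded chain under the control of J-domain proteins, which load it, and of exchange factors, which release ADP, while HSP90 takes over partly folded clients such as kinases and steroid receptors. HSF1 is the factor that switches these genes on when unfolded protein accumulates, and it is held inactive in part by the chaperones it induces. HDAC6, a cytosolic deacetylase, removes acetyl groups from HSP90, and pan-HDAC inhibitors of the hydroxamate kind are known for disturbing HSP90 in leukemia cells. The comparison below therefore asks whether the mRNA of the chaperone system differed between control and I3 samples. mRNA levels say nothing of acetylation or protein amount.

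Levels are given as FPKM, fragment counts corrected for gene length and library total, and they are set side by side between genes below. The correction does not cover reads shared between genes, so the ranks of HSPA1A, HSPA1B and HSPE1 are less certain. The unit is relative to each library, and a change of total RNA per cell could not be seen. The depth rebuilt from the values was 17500320 to 17798678 reads in the control libraries and 17794814 to 18193371 in the I3 libraries. The Kasumi-1 markers were all present, among them MPO at 7740 FPKM or more, KIT at 198 or more and RUNX1T1 at 14.1 or more. Of the markers of other lineages, the T cell marker CD3E stayed at or under 0.179 FPKM, whereas the epithelial marker EPCAM reached 28.2 to 31.6 FPKM in every library. Libraries within a group differed beyond sampling noise, with a chi-square of their reads at least 4.36 times its degrees of freedom.

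No difference between control and I3 was detected for any of the 10 genes. In limma on log2(FPKM + 0.5), the log2 difference of I3 from control ran from -0.12 for HSF1 to 0.080 for HSPE1, and the adjusted p was 0.998 or more for every gene. The ratio of the I3 mean to the control mean lay between 0.919 and 1.05. The control and I3 libraries overlapped for 10 of the 10 genes, against a background in which they did not overlap for 9.7% of all genes tested. None of the 10 had an unadjusted p under 0.05, where 4.93% of all genes did, and none passed a log2 difference of 0.58, which 2.77% of all genes passed.

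The same test called no gene of the whole table either, 0% higher and 0% lower, at an adjusted p of 0.05 with that fold threshold. At an unadjusted p under 0.05, limma had 639 of the 12960 genes. voom on the rebuilt reads, the other tool run, also called 0 and had 662 of 13606 at an unadjusted p under 0.05. When single libraries were left out, limma called 1 gene without control 1, 2 genes without I3 1 and 1 gene without I3 2, none of them among the 10. The study itself reported genes called in both directions with DESeq at these thresholds. It followed VEGF-A and EMR2 by RT-PCR and western blotting. The count of 0 here holds for limma on the deposited FPKM and voom on the rebuilt reads.

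**Figure D1:**
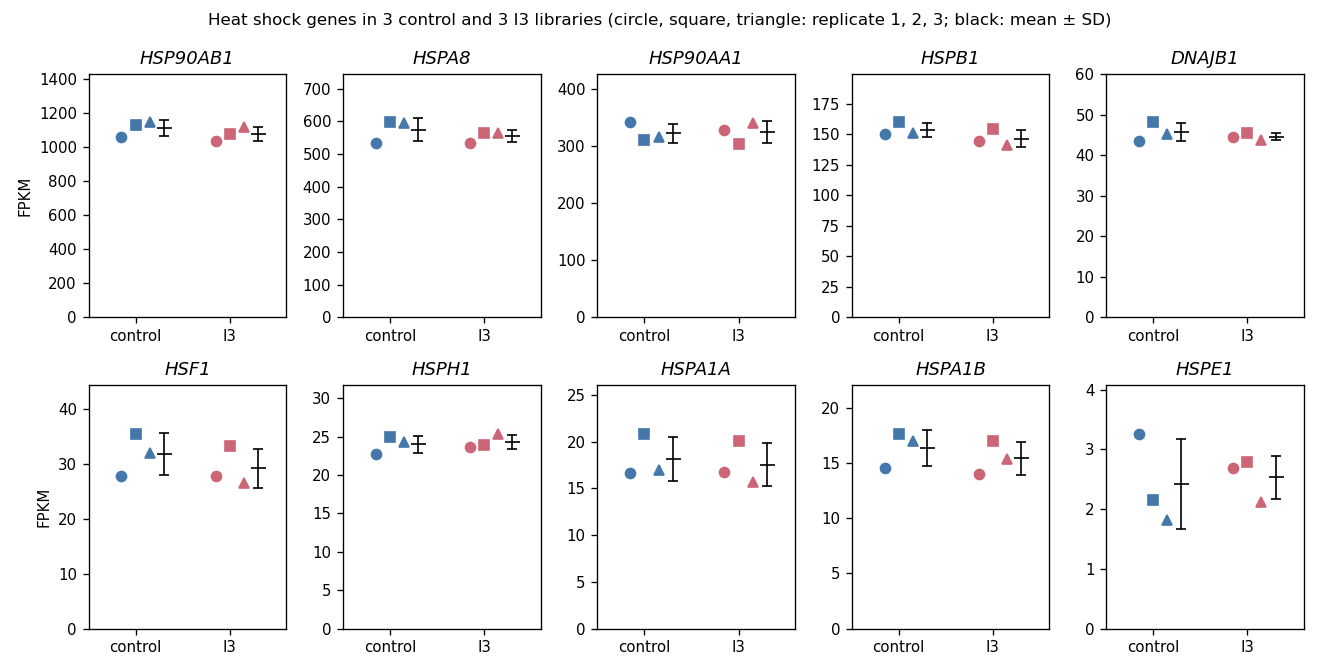
FPKM of the 10 genes in 3 control and 3 I3 libraries, 1 panel a gene with a linear axis of its own from 0. Circles, squares and triangles are replicates 1, 2 and 3, and black bars are the mean ± SD. Levels run from 1033 FPKM or more for HSP90AB1 to 3.26 FPKM or less for HSPE1, and the points of both groups overlap for each gene.

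HSP90 exists in the cytosol as a constitutive form, HSP90AB1 (HSP90β), and a form that stress raises further, HSP90AA1 (HSP90α). HSP90AB1 (chr6:44246166-44253888, plus strand, GRCh38) was the most abundant of the 10 genes and ranked 28 among the 12960 genes tested. Its level was 1057, 1128 and 1145 FPKM in control 1, 2 and 3 and 1033, 1077 and 1117 FPKM in I3 1, 2 and 3. The lowest value belonged to I3 and the highest to control, but the ranges overlapped over most of their width. The means were 1110.05 ± 47.0 FPKM in control and 1076 ± 42.2 FPKM in I3 (SD, n = 3 each). limma gave a log2 difference of -0.045 (95% interval -0.18 to 0.086, adjusted p = 0.998).

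HSP90AA1 (chr14:102080738-102139699, minus strand) was measured at 342, 311 and 316 FPKM in control 1, 2 and 3 and at 328, 303 and 341 FPKM in I3 1, 2 and 3. Control 1 was the highest and I3 2 the lowest, with the rest mixed between them. The means were 323 ± 16.7 and 324 ± 19.3 FPKM (SD, n = 3 each), and the log2 difference of 0.0051 (95% interval -0.15 to 0.16) was the one nearest to 0 among the 10 genes. HSP90AA1 stood at 27.6% to 32.4% of HSP90AB1 in every library. The log2 ratio of the pair differed by 0.051 between I3 and control (two-sided exact permutation p = 0.60), and the smallest p that 3 libraries against 3 allow is 0.10. The difference in the ratio was 0.13 without control 1 and 0.011 without I3 1.

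Heat shock elements, the DNA sites of HSF1, are runs of inverted GAA units. They were looked for in the 250 bases before each RefSeq start (GRCh38.p14), as a pair of units (GAANNTTC or TTCNNGAA) and as 3 units in a row, the first pair followed by NNGAA or the second by NNTTC. Both strands are covered, as each pair reads the same on either strand, and a run of 3 units contains both pairs. A window was given for 9 of the 10 genes. 7 of the 9 (77.8%) held a pair in any window, against 14.0% of 27305 genes, and 3 of the 9 (33.3%), HSP90AA1, HSP90AB1 and HSPA8, held a run of 3 units, against 0.557%. These genes are textbook HSF1 targets, so the counts describe the set and were not tested. A match in the letters is a description, not a site in use. For HSP90AB1 the windows are shown because both runs of 3 units lie close together before 1 of its 3 starts, with the run in capitals and 10 bases on either side, plus strand, at chr6:44247768-44247800 and chr6:44247821-44247853.
HSP90AB1, bases 165 to 153 before the start: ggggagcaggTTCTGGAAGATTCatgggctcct
HSP90AB1, bases 112 to 100 before the start: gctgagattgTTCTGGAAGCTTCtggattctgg
The next windows are shown because HSPA1A and HSPA1B, which are hard to separate by reads, also have nearly the same letters here, while DNAJB1 and HSPB1 hold single pairs. They lie at chr6:31815427-31815454, chr6:31827623-31827650, chr19:14518457-14518484 (minus strand), chr19:14518427-14518454 (minus strand) and chr7:76302481-76302508, with the pair of units in capitals.
HSPA1A, bases 106 to 99: gaaaaccctgGAATATTCccgacctggc
HSPA1B, bases 105 to 98: gaaacccctgGAATATTCccgacctggc
DNAJB1, bases 77 to 70: gggcggggcgGAAGGTTCtggagggggc
DNAJB1, bases 47 to 40: gcgggctctgGAAGCTTCcgccggacgg
HSPB1, bases 182 to 175: cttaacgagaGAAGGTTCcagatgaggg
HSPH1 and HSPE1 had no match in their own windows. The window of HSPD1, the neighbour that starts beside HSPE1 on the opposite strand, held runs of 3 units at chr2:197500058-197500090. That stretch is inside the annotated HSPE1 gene. The runs were not in the window searched for HSPE1, which lies before its RefSeq start. None of these genes differed detectably between control and I3, with or without a match. As no gene of the whole table was called, this cannot tell genes with and without matches apart.

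Among the HSP70 genes, HSPA8 (HSC70, chr11:123057489-123063230, minus strand) encodes the constitutive form that also uncoats clathrin vesicles. It ranked 51 of the 12960 genes, at 533, 597 and 594 FPKM in control 1, 2 and 3 and 534, 566 and 566 FPKM in I3 1, 2 and 3. The I3 libraries all lay within the range of the controls. The means of 575 ± 35.9 and 555 ± 18.3 FPKM (SD, n = 3 each) gave a log2 difference of -0.049 (limma, 95% interval -0.19 to 0.095, adjusted p = 0.998).

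HSPA1A (chr6:31815464-31817946) and HSPA1B (chr6:31827735-31830255) are neighbouring plus-strand genes for the same stress-inducible HSP70. HSPA1A stood at 16.6, 20.9 and 17.0 FPKM in control 1, 2 and 3 and at 16.8, 20.1 and 15.7 FPKM in I3 1, 2 and 3. HSPA1B stood at 14.6, 17.7 and 17.0 FPKM in control and at 14.02, 17.0 and 15.3 FPKM in I3. Library 2 of each group was the highest of its group for both genes, and the groups overlapped. The log2 difference was -0.051 for HSPA1A (95% interval -0.33 to 0.23) and -0.082 for HSPA1B (95% interval -0.31 to 0.15), each with an adjusted p of 0.998 in limma.

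How reads were divided between the pair is uncertain. Of all stretches of 100 bases in HSPA1A transcripts, 67.3% also occur in HSPA1B, and 36.5% of the exon bases of HSPA1B are also annotated to AL671762.1 on the same strand. With the pair summed, which removes the division between them, the log2 difference was -0.067. The summed pair was 5.48% to 6.56% of HSPA8 in each library, and the log2 ratio to HSPA8 differed by -0.018 between I3 and control (two-sided exact permutation p = 0.90). As listed, the stress-inducible pair was thus below HSPA8 in both groups. The sum does not restore shared reads that may have been left out of the counts. The sources used here do not say how such reads were counted, so the level of the pair may be understated.

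HSPH1 (HSP110, chr13:31134974-31162388, minus strand), a relative of HSP70 that acts as its exchange factor, stood at 22.8, 24.95 and 24.3 FPKM in control 1, 2 and 3. In I3 1, 2 and 3 it stood at 23.7, 23.9 and 25.4 FPKM. I3 held the highest value and control the lowest, and the log2 difference was 0.016 (95% interval -0.12 to 0.16, limma adjusted p = 0.998).

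DNAJB1 (HSP40, chr19:14514770-14529770, minus strand), the J-domain protein that loads HSP70, stood at 43.6, 48.1 and 45.3 FPKM in control 1, 2 and 3 and at 44.5, 45.4 and 43.8 FPKM in I3 1, 2 and 3. All I3 values lay inside the range of the controls. Its log2 difference was -0.034 (95% interval -0.16 to 0.095), and an increase above 1.07-fold lay outside that interval.

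HSPB1 (HSP27, chr7:76302544-76304295, plus strand) is a small heat shock protein that holds unfolded protein without ATP. It stood at 150.1, 159.9 and 151 FPKM in control 1, 2 and 3 and at 145, 154 and 141 FPKM in I3 1, 2 and 3. The lower 2 I3 libraries were below every control, but I3 2 was above control 1 and control 3. HSPB1 had the smallest unadjusted p of the 10 genes, 0.25 in limma, with a log2 difference of -0.068 (95% interval -0.20 to 0.061) and an adjusted p of 0.998.

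HSPE1 (HSP10, chr2:197499994-197503457, plus strand) forms the lid of the mitochondrial chaperonin HSPD1 and shares its promoter region. It was by far the lowest of the 10 genes, at 3.26, 2.16 and 1.82 FPKM in control 1, 2 and 3 and 2.70, 2.79 and 2.11 FPKM in I3 1, 2 and 3. These values rest on 63 to 114 reads a library, and the controls alone spread 1.79-fold. The log2 difference of 0.080 therefore had the widest interval of the 10, from -0.36 to 0.52 (limma, adjusted p = 0.998).

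HSPE1 stood at 0.744% to 1.33% of HSPD1 per length, although the proteins work as a complex. HSPD1 was at 242 to 266 FPKM in the 6 libraries. Of the HSPE1 exon bases, 14.2% overlap HSPD1 on the opposite strand and 9.71% overlap HSPE1-MOB4 on the same strand, and 6.71% of its 100-base stretches occur in other annotated genes, processed pseudogenes among them. The sources used here do not say how such reads were counted, and the part of this in the low level was not tested. The log2 ratio of HSPE1 to HSPD1 differed by 0.046 between I3 and control (two-sided exact permutation p = 0.90).

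HSF1 itself (chromosome 8, 144291591 to 144314722, plus strand) stood at 27.7, 35.4 and 32.0 FPKM in control 1, 2 and 3 and at 27.7, 33.1 and 26.5 FPKM in I3 1, 2 and 3. Control 2 and I3 2 were the highest libraries of their groups and I3 3 the lowest of all. The means were 31.7 ± 3.87 and 29.1 ± 3.50 FPKM (SD, n = 3 each). The log2 difference of -0.12 had a 95% interval from -0.39 to 0.15 (limma, adjusted p = 0.998). It depended on single libraries, at -0.038 without control 2, -0.057 without I3 3, -0.21 without control 1 and -0.21 without I3 2. HSF1 is controlled mainly on the protein, by trimer formation and phosphorylation, which mRNA does not show.

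**Figure D2:**
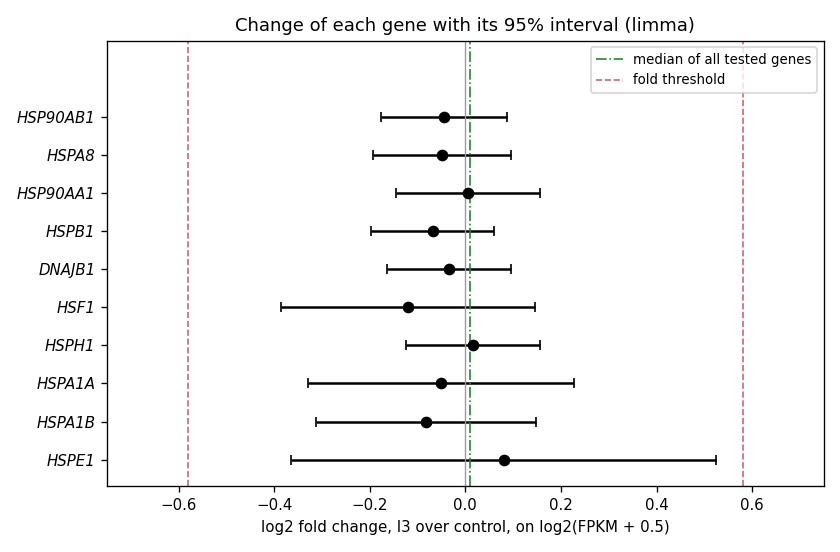
Difference of I3 from control on the log2(FPKM + 0.5) scale for the 10 genes, with 95% intervals from limma, dashed lines at the fold threshold of 0.58 and a green line at the median of all tested genes. Each interval includes 0 and lies inside the threshold, and that of HSPE1 is the widest.

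Across the 10 genes, 7 differences were below 0 and 3 above, with HSP90AA1 and DNAJB1 changing sign under another scaling, and the median was -0.047 against 0.011 over all 12960 genes. The 95% interval of all 10 included 0 and stayed within 0.58 on the log2 scale. For the 9 genes other than HSPE1, the intervals ran at most from 0.765-fold to 1.17-fold, and for HSPE1 the upper bound was 1.44-fold. For each of the 10 genes, the highest control exceeded the lowest control by more than the I3 mean departed from the control mean.

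The order of the genes by level was the same with and without I3. In every library HSP90AB1 was followed by HSPA8, HSP90AA1, HSPB1, DNAJB1, HSF1, HSPH1, HSPA1A, HSPA1B and HSPE1. Of the neighbours in this order, only HSPA1A and HSPA1B had ranges that overlapped over the 6 libraries, although HSPA1A was above HSPA1B in 6 of 6. In control 3 the pair was nearly level, at 16.984 and 16.977 FPKM, so its order is not firm. HSP90AB1, HSPA8 and HSP90AA1 together made up 86.8% to 88.2% of the summed FPKM of the 10 genes. That sum was 0.816 ± 0.0252% of all FPKM in control and 0.799 ± 0.0319% in I3 (SD, n = 3 each). HSP90AB1 and HSPA8 alone, the constitutive forms, made up 71.9% to 74.2% of it.

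The 10 genes did not all vary together from library to library, and the 5 richest in GC shared an order of libraries. HSPB1, HSF1, HSPA1A, HSPA1B and DNAJB1 have transcripts with 55.1% to 64.3% GC, and each of these 5 was highest in control 2 and second highest in I3 2. Of the 5 others, with 39.6% to 47.7% GC, 0 had that order. HSP90AA1, with 43.6% GC, ran the other way and was lowest in I3 2 and next lowest in control 2. The split by GC content was not clean, however. HSPA8, with 46.8% GC, was also highest in control 2 and had a Pearson's r of 0.92 with HSPA1B. HSPH1, with the lowest GC content of the 10, was second highest in control 2.

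Over the genes tested, departures from the mean level also went with GC content in each library. The rank correlation was positive in control 2 (0.446), control 3 (0.337) and I3 2 (0.262). It was negative in control 1 (-0.313), I3 1 (-0.232) and I3 3 (-0.446). These are descriptions across genes, which are not independent, and the part of GC content in the pattern of the 10 genes was not tested beyond the removal of its trend. After removal of the GC trend from each library, the log2 difference of HSF1 was -0.049. That of HSPB1 turned from -0.068 to 0.0045, with the gene still not called. The differences of HSP90AA1 and HSPH1, which have less GC, grew in size, from 0.0051 to -0.033 and from 0.016 to -0.046.

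**Figure D3:**
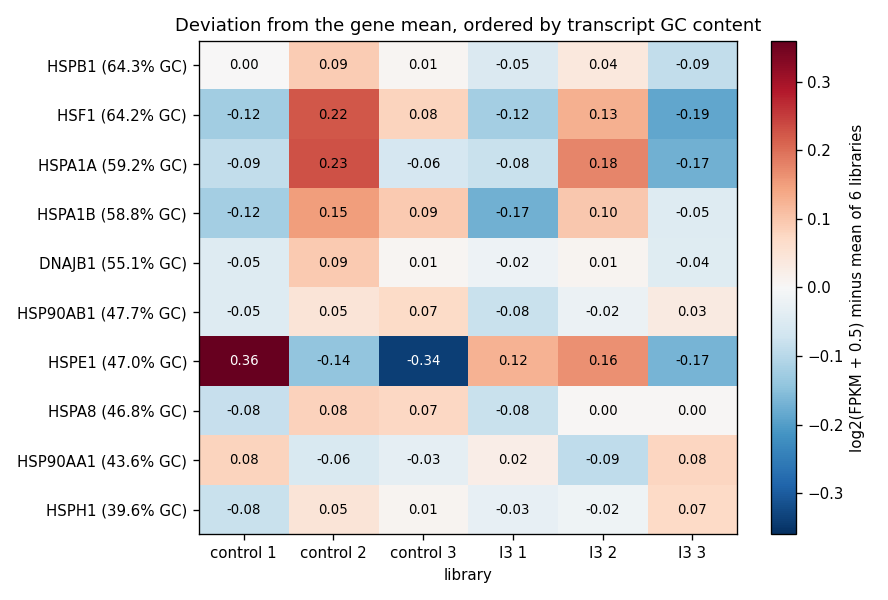
Deviation of each library from the mean of the gene on the log2(FPKM + 0.5) scale, with the 10 genes as rows in order of the GC content of their transcripts and the 6 libraries as columns. The GC-rich genes are high in control 2 and I3 2, and HSP90AA1 is low in the same libraries.

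Outside the listed genes, those whose levels over the 6 libraries were most like the mean profile of the 10 were GIGYF1, SRD5A3, MMP17, RAC3 and MYO1G, with Pearson's r between 0.990 and 0.998. All but SRD5A3 have a GC content of 60.9% or more. With 6 libraries and 12960 candidates such values describe a likeness only. The mean profile did not follow all 10 genes alike. Its r was 0.97 with HSPA1A, 0.95 with HSPB1 and 0.93 with HSF1. HSPA8, HSPA1B and DNAJB1 stood at 0.58, 0.81 and 0.85. For HSP90AB1, HSPH1, HSPE1 and HSP90AA1 it was 0.32, 0.11, -0.037 and -0.79.

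The wider chaperone network was read from 100 further genes in fixed lists, of which 96 were in the table and 78 were tested. limma called 0 of the 78 higher and 0 lower, and the median log2 difference was -0.0037 against 0.011 over all genes. 1 of the 78 had an unadjusted p under 0.05, against 4.93% of all genes tested. The groups did not overlap for 3 higher and 3 lower genes of the 78, against 9.7% of all genes tested. Both shares lie below the background, and the genes concerned are named below only to account for them.

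Of 3 tested relatives of HSP70, none was called, and HSPA4, another HSP110 protein, stood at 62.9 ± 0.436 FPKM in control and 61.5 ± 2.28 in I3 (SD, n = 3 each). HSPA14, an HSP70 associated with ribosomes, stood at 7.76 to 10.5 FPKM. HSPA6, which human cells hardly express without strong stress, was not tested. It had 10 reads in the 3 control libraries and 13 in the 3 I3 libraries, or 0 to 0.215 FPKM, and was listed at 0 in control 2 and I3 2. Its window before the RefSeq start holds a run of 3 HSF1 units, shown because the gene depends so strictly on stress, at chr1:161524456-161524488 with the run in capitals.
HSPA6, bases 74 to 62 before the start: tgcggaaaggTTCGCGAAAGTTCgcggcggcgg
The depth allowed no statement on a difference for HSPA6 beyond its being near 0 in both groups.

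Of 10 other J-domain genes tested, 8 differences were above 0 and 2 below, with none called. Their median of 0.0089 had no stable sign, at -0.028 with the GC trend removed, -0.011 without control 2 and -0.026 without I3 3. DNAJA1 and DNAJA2, which load HSC70 in the cytosol, stood at 88.7 to 94.0 and 84.1 to 89.7 FPKM. DNAJB6, which keeps aggregation-prone chains soluble, was at 10.4, 10.1 and 10.1 FPKM in control 1, 2 and 3 and 10.5, 10.7 and 10.7 in I3 1, 2 and 3. The groups of DNAJB6 did not overlap, at a log2 difference of 0.057 and an adjusted p of 0.998 in limma. DNAJB5 was too low to be tested, at 0.168 to 0.267 FPKM, with all I3 libraries below the controls.

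Of 9 exchange factors and partners of HSP70, none was called. ST13 (HIP), which steadies the ADP form of HSP70, stood at 109 to 126 FPKM, and BAG6, which guards tail-anchored proteins, at 45.3 to 54.6 FPKM. BAG3, an HSF1 target that links HSP70 to autophagy, was at 7.29 ± 0.790 FPKM in control and 6.50 ± 0.902 in I3 (SD, n = 3 each), with groups that overlapped. BAG1 stood at 17.8, 18.8 and 18.6 FPKM in control 1, 2 and 3 and at 17.0, 17.7 and 11.3 FPKM in I3 1, 2 and 3. The I3 libraries were all lower, and I3 3 carried most of the gap. The log2 difference was -0.28 (95% interval -0.65 to 0.087, limma adjusted p = 0.998).

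Among 18 HSP90 co-chaperones, 9 differences were above 0 and 9 below, and none was called. PTGES3 (p23), which slows the HSP90 ATPase, was the most abundant at 114 to 134 FPKM, and FKBP8 stood at 88.5 to 100.2 FPKM. HDAC6, the deacetylase of HSP90, was at 6.25, 6.91 and 6.09 FPKM in control 1, 2 and 3 and at 5.94, 5.97 and 5.61 FPKM in I3 1, 2 and 3. All I3 libraries were below all controls, with I3 2 and control 3 close together. The log2 difference was -0.12 (95% interval -0.30 to 0.047, limma unadjusted p = 0.13, adjusted p = 0.998).

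The other small heat shock proteins were at or near 0. None of the 6 in the table reached the level for testing, and the highest value was 0.263 FPKM for HSPB9, and the other 3 of the 9 listed were not analysed here. HSPB6 was listed at 0 in 4 of the 6 libraries. Of the other heat shock factors, HSF2 stood at 9.77 to 11.9 FPKM. HSBP1, a small protein that binds HSF1 trimers, was at 7.27 to 7.51 FPKM in control and 7.61 to 7.66 in I3, without overlap, at a log2 difference of 0.041 (limma adjusted p = 0.998).

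In the mitochondria and the endoplasmic reticulum, 8 chaperone genes were tested and none was called, with a median of 0.016. HSPA5 (BiP) stood at 372 ± 32.5 FPKM in control and 377 ± 42.4 in I3, and HSP90B1 (GRP94) at 278 ± 46.7 and 281 ± 37.6 (SD, n = 3 each). These HSP70 and HSP90 forms of the endoplasmic reticulum are raised by the unfolded protein response. Both were lowest in control 2 and I3 2. HSPD1 had a log2 difference of 0.034 (95% interval -0.089 to 0.16). The 14 subunits of the cytosolic chaperonin CCT and of prefoldin, which fold actin and tubulin, had a median of -0.024, and its most abundant subunits CCT7 and CCT3 stood at 135 to 157 and 125 to 147 FPKM.

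**Figure D4:**
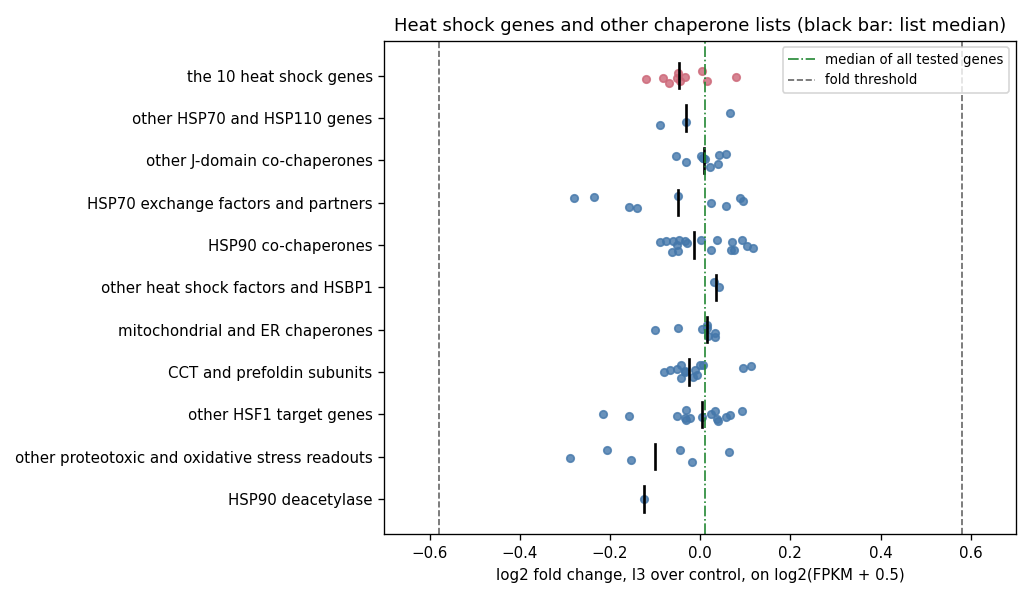
Differences of I3 from control on the log2(FPKM + 0.5) scale for each tested gene of the 10 and of the other lists, with a black bar at the median of each list, a green line at the median of all tested genes and dashed lines at the fold threshold. The lists centre near 0, and BAG1 and GCLM are the lowest points.

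Of 15 other HSF1 target genes, 8 differences were above 0 and 7 below, with a median of 0.0045. FKBP4, which couples HSP90 to steroid receptors, was at 94.8 ± 8.12 FPKM in control and 92.5 ± 5.63 in I3 (SD, n = 3 each). The 6 tested readouts of proteotoxic and oxidative stress had a median of -0.099, with 5 below 0, and none was called. The median was -0.045 at a minimum mean FPKM of 5 and -0.15 after rescaling to TPM. Both settings also changed which genes of the list were tested. TXNRD1, the cytosolic thioredoxin reductase, was at 31.5 to 34.8 FPKM in control and 34.8 to 35.5 in I3 with groups that just missed each other. SQSTM1 (p62), the autophagy receptor, stood at 9.29 to 10.5 FPKM.

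GCLM, the regulatory subunit of the first enzyme of glutathione synthesis, was the gene with an unadjusted p under 0.05. It stood at 2.49, 2.68 and 2.71 FPKM in control 1, 2 and 3 and at 1.90, 2.05 and 2.23 FPKM in I3 1, 2 and 3. All I3 libraries were below all controls. The log2 difference was -0.29 (95% interval -0.50 to -0.071, limma unadjusted p = 0.016), and the adjusted p was 0.86, so the gene was not called.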

How the data were processed

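mRNA-seq of 3 control and 3 I3 samples of Kasumi-1 cells was analysed. The authors deposited FPKM values, 1 column per library, from stranded libraries of polyadenylated RNA. The submitters' processing notes name Trimmomatic, HISAT2, Cufflinks and HTSeq and the build hg38. The sources used here give neither versions nor the annotation. Of 29810 genes, 29703 were matched to GENCODE release 29, which gave exon lengths and coordinates. Symbols came from a separate list of gene names, which gave one to 23487 of the 29810 genes. Reads were rebuilt from FPKM and exon length, and 95.8% of 26519 genes were whole in all 6 libraries at a tolerance of 0.1 read.

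I3 was compared with control by limma 3.58.1 (R 4.3.3, lmFit, then eBayes with a trend), without covariates, on log2(FPKM + 0.5). The 12960 genes whose mean FPKM reached 0.5 were tested, with Benjamini-Hochberg adjustment, called at an adjusted p of 0.05 and a log2 difference of 0.58. Differences on this scale understate those of low genes. Ratios were tested with two-sided exact permutation in scipy 1.17.1. Promoter windows came from RefSeq. The procedure was tested on simulated data.

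The genes and lists were chosen with earlier results of these data known. Beside the 10 genes, the text names listed genes with an unadjusted p under 0.05 or groups without overlap, the 2 most abundant of each list, HSPD1, HSPA5, HSP90B1, HSPA6, BAG3, HDAC6 and the 5 genes most like the mean profile. Alternatives were other pseudocounts, minimums and scalings, removal of the GC trend, each library left out, a block on replicate number, eBayes without a trend, voom on rebuilt reads and the sum of HSPA1A and HSPA1B.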

Additional observations from a re-analysis of the deposited data

How the results depend on the processing

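None of the 10 genes was called under any alternative (smallest adjusted p 0.50 over 180 values), and the median of the 10 stayed below 0. Of the 180 log2 differences, 16 turned sign, none past a threshold. HSP90AA1 was -0.0082 with median-of-ratios scaling, -0.026 with quantile normalization and -0.033 with the GC trend removed, DNAJB1 was 0.0081 with quantile normalization, and HSPH1 was -0.046 and HSPB1 0.0045 with the GC trend removed. With single libraries left out, HSP90AA1 ranged from -0.032 to 0.053, HSPA1A from -0.15 to 0.050, HSPH1 from -0.020 to 0.043, DNAJB1 from -0.066 to 0.0037, HSPE1 from -0.069 to 0.28, HSF1 from -0.21 to -0.038 and HSPA1B from -0.16 to -0.016. The log2 ratio of HSP90AA1 to HSP90AB1 ranged from 0.011 to 0.13, that of HSPA1A and HSPA1B to HSPA8 from -0.091 to 0.037 and that of HSPE1 to HSPD1 from -0.10 to 0.24. The number of genes called over the whole table ranged from 0 to 2 with single libraries left out (1 without control 1, 2 without I3 1, 1 without I3 2) and was 0 otherwise. List medians also moved. That of the other J-domain genes ranged from -0.026 to 0.046 with single libraries left out and was -0.028 with the GC trend removed. That of the stress readouts was -0.045 at a minimum mean FPKM of 5 and -0.15 after rescaling to TPM. Both of the latter settings also changed which stress readouts were tested. Without control 1, the medians were -0.13 for the exchange factors, -0.069 for the HSP90 co-chaperones and -0.060 for CCT and prefoldin. The cause was not tested. HSPE1 gave no value at a minimum mean FPKM of 5. Same-numbered libraries deviated together with r of 0.063, 0.15 and -0.024, so little shared deviation was seen. Such values cannot decide whether the samples were paired, and the labels do not say. The replicate number as a block called 0 genes. With 3 libraries a group, shifts inside the intervals given for each gene remain possible, and the intervals are not limits of detection. HSPE1 and HSPA6 were limited by few reads.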
